A study of Mus musculus with 8 samples.

Results

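The 10 genes described here encode transcription factors of the AP-1 type: Jun, Junb, Jund, Fos, Fosl1, Fosl2, Batf, Jdp2, Atf3 and Maff. They were chosen by name, with earlier results of these data known, and are 10 of the 23356 genes in the deposited expression table. RNA-seq was performed on 8 libraries from bone marrow-derived dendritic cells (BMDCs), 2 libraries in each of 4 groups. The groups were WT and Arhgef2-/- (GEF-H1-/-) cells, each left untreated (control) or given ansamitocin-P3 at 100 nM for 5 h. The mice were on a C57BL/6 background, C57BL/6N in the study's methods, and 8 to 16 weeks old. Marrow cells of both genotypes were grown for 6 days in GM-CSF and IL-4, each at 10 ng/ml, and the floating and loosely attached cells were taken, so all 4 groups share this cytokine culture and none was sorted. Ansamitocin-P3 is a maytansinoid that binds tubulin and destabilizes microtubules. GEF-H1, the product of Arhgef2, is an exchange factor for RhoA that is held inactive on microtubules and released when they come apart. The labels do not say whether the 2 libraries of a group came from separate mice.

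AP-1 is a dimer. The Jun proteins (Jun, Junb, Jund) pair with each other or with a Fos protein (Fos, Fosl1, Fosl2), while Batf, Jdp2 and Atf3 pair mainly with Jun proteins, and the small Maf protein Maff pairs with itself, with Fos proteins or with NF-E2-related factors. Jun kinases (JNK) phosphorylate Jun on its activation domain, which raises its activity and the transcription of the Jun gene itself. In dendritic cells, AP-1 dimers act with NF-κB and with IRF4 or IRF8 at genes for cytokines, chemokines and maturation. Many AP-1 genes are immediate-early genes, so their mRNA can come and go within the first hour after a stimulus, and the samples here were taken at 5 h.

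The table gives 1 FPKM (fragments scaled to the length of the transcript and the size of the library) per gene and group, pooled over the 2 libraries by Cuffdiff, with the 95% interval that Cuffdiff attached to it. The spread between libraries cannot be seen in pooled values, so there is no SD, no n per value and no p-value, and differences are read against the Cuffdiff intervals. A change is the log2 ratio of FPKM + 1. Values were compared over the 11397 genes that reached 1 FPKM in at least 1 group with a Cuffdiff status of OK in all groups. Of the 10 AP-1 genes 9 passed, and Fosl1 did not. Arhgef2 itself was at 42.3 FPKM in control and 45.9 FPKM in treated WT cells, and at 4.59 and 4.16 FPKM in GEF-H1-/- cells. No genotype stands in the headings of the WT groups; they were taken as WT because the other headings name GEF-H1, and the low Arhgef2 in the latter runs the same way. The dendritic cell markers were present, with Cd74 at 3676, H2-Ab1 at 633, Itgax at 102 and Zbtb46 at 14.8 FPKM in control WT cells, and none of the 6 was at 0 in any group. The 6 neutrophil markers summed to between 11828 and 25891 FPKM over the groups, with S100a8 as the largest part of the sum. None of these 6 was at 0 in any group either, but the interval of Elane reached 0 in every group. The values of S100a8 and of the metallothionein genes Mt1 and Mt2 lie outside their own Cuffdiff intervals, so no error is read for them; those of the 10 AP-1 genes lie inside.

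The regulatory sequence just before several of the genes is shown because the cAMP and AP-1 response elements are recognised by overlapping, not identical, sets of dimers. The windows are the 250 bases before the annotated start in RefSeq (GRCm38.p6), written 5′ to 3′ along the gene. They were available for 9 of the 10 genes. Capitals mark matches to the cAMP response element TGACGTCA, to its core ACGTCA on either strand, or to TGACATCA, the form of the element described for the Jun gene. Jun and Fosl2 are shown as the genes with the largest changes, Atf3 and Maff as genes with a match close to the start, and Batf as the gene with lower values with the drug in both genotypes, within the error. They lie at chr4:95052223-95052472 (minus strand) for Jun, chr5:32136222-32136471 (plus) for Fosl2, chr1:191183334-191183583 (minus) for Atf3, chr15:79347270-79347519 (plus) for Maff and chr12:85686470-85686719 (plus) for Batf.
Jun: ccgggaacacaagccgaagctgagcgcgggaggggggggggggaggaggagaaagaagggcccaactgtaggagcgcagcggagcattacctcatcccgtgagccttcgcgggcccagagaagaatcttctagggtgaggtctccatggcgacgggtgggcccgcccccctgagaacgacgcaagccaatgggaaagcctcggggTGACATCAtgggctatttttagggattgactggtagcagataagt
Fosl2: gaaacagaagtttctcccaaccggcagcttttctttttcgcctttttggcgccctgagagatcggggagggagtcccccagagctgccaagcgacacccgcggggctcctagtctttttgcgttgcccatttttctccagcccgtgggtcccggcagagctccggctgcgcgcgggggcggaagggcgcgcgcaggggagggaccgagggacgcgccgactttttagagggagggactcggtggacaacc
Atf3: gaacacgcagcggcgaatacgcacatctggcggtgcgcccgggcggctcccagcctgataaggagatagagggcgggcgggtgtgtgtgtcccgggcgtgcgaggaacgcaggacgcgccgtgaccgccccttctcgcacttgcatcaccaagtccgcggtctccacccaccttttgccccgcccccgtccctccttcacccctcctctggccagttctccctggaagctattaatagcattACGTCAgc
Maff: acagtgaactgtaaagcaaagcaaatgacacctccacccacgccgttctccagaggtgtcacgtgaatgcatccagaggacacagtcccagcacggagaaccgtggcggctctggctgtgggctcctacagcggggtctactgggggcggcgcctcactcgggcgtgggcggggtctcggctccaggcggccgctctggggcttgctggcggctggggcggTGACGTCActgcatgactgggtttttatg
Batf: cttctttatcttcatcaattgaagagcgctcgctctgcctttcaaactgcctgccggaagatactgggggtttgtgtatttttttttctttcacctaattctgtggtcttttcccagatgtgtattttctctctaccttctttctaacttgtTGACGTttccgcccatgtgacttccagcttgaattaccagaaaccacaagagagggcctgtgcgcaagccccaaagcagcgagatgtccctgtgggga

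The Jun window held TGACATCA from 45 to 38 bases before the start, a sequence found in 2.93% of the 32851 windows of this length. Maff held the palindrome TGACGTCA from 29 to 22 bases before the start, against 1.55% of all windows. The core ACGTCA was present in 4 of 9 windows (Fos, Batf, Atf3 and Maff, where it is part of the longer palindrome) and in 6.47% of all. In Atf3 it lay 8 to 3 bases before the start, in Fos 66 to 61 and in Batf 98 to 93. The AP-1 site TGANTCA was in 0 of the 9 windows and in 6.75% of all, and the CArG box of serum response factor in 0 of 9 and in 1.47% of all. Fos held the letters TATAAA 33 to 28 bases before its start, as did 12.4% of all windows. Junb, Jund, Fosl2 and Jdp2 had no match to any of these letters in this stretch. The annotated starts used for Fos and Maff lie 11 and 158 bases before the loci in the deposited table, and positions are counted from the annotated start. For Jdp2 and Maff the nearest of 3 annotated starts was taken. These are matches of letters and were not tested for binding.

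All 3 Jun family mRNAs had higher values with ansamitocin-P3 in both genotypes, and for Junb in GEF-H1-/- cells this was within the error. Jun had the largest change of the family in both. Jun (chromosome 4, 95049036 to 95052222 in GRCm38) encodes the family's strongest activator and the main substrate of JNK. WT cells had 28.0 FPKM without the drug (95% interval 20.7 to 33.4) and 99.0 with it (71.2 to 114). GEF-H1-/- cells had 28.4 (20.7 to 33.4) and 76.6 FPKM (55.7 to 89.3). Both treated groups lay above both control groups with no overlap of the intervals. The treated level was 3.54 times the control level in WT and 2.70 times in GEF-H1-/- cells, log2 changes of 1.79 ± 0.23 and 1.40 ± 0.23 (± SE derived from the Cuffdiff intervals). By the size of this change Jun ranked 110 of 11397 genes in WT cells and 53 in GEF-H1-/- cells. The 2 changes differed by 0.39, with a 95% interval of -0.24 to 1.01 that contains 0.

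Junb (chromosome 8, 84976909 to 84978748) encodes a Jun protein with weaker activation that can also oppose Jun. Without and with the drug its level was 96.0 (70.6 to 113) and 253 FPKM (172 to 276) in WT cells, against 82.9 (59.7 to 95.8) and 109 FPKM (77.7 to 125) in GEF-H1-/- cells. Treated WT cells stood apart from the other 3 groups, whose intervals overlapped. The log2 change with the drug was 1.39 ± 0.22 for WT against 0.40 ± 0.22 for GEF-H1-/- cells. The difference of 0.99 (0.37 to 1.61) was the largest among the AP-1 genes and ranked 159 of 11397 genes.

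Jund (chromosome 8, 70697739 to 70700616), the Jun gene that is expressed in most resting cells, had treated levels above control levels with and without GEF-H1. It went from 130.0 (98.2 to 158) to 248 FPKM (179 to 288) with the drug in WT cells, and from 117 (87.2 to 140) to 203 FPKM (150 to 241) where GEF-H1 was missing. The intervals did not overlap in either genotype, with log2 changes of 0.93 ± 0.23 and 0.79 ± 0.23. The difference between genotypes was 0.14 (-0.50 to 0.78), or -0.09 when the groups were brought to a common sum of FPKM. The annotation places the antisense genes Junos and Gm11175 over 689 bases of Jun and 919 bases of Jund. The libraries kept strand, but the strand setting of the Cuffdiff run behind these FPKM is not given in the sources used here, so reads of these partners cannot be told apart from those of Jun and Jund.

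**Figure D1:**
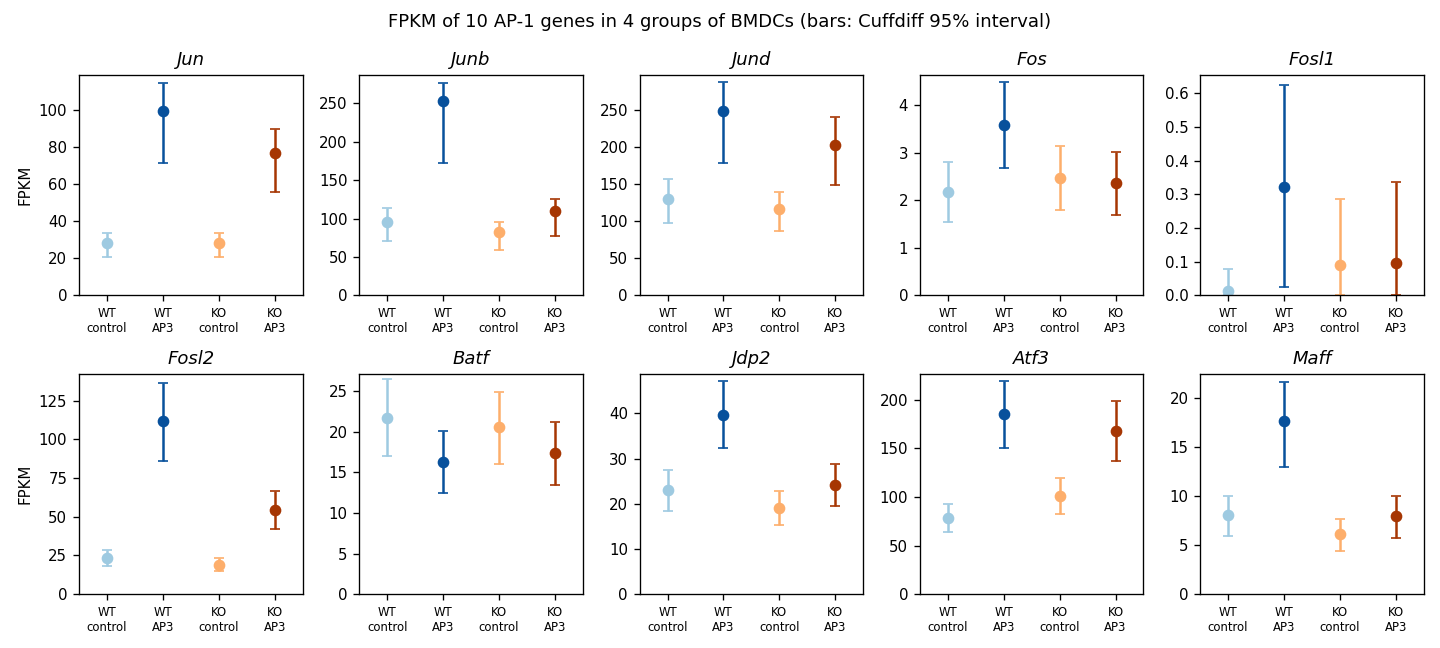
FPKM (vertical axis, linear, from 0, scale set per gene) of the 10 AP-1 genes in control and ansamitocin-P3 (AP3)-treated WT and GEF-H1-/- (KO) BMDCs. Points are the pooled value of 2 libraries and bars the Cuffdiff 95% interval. In treated WT cells Junb, Fosl2, Jdp2 and Maff were apart from the 3 other groups. Jun, Jund, Atf3 and also Fosl2 were above the control of the same genotype in both treated groups, without overlap.

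Fosl2 held most of the mRNA of the Fos family, and it had the largest change of all 10 genes. Fosl2 (Fra-2; chromosome 5, 32136472 to 32157839) encodes a Fos protein that lacks the strong activation domain of Fos. Control and treated WT cells had 23.2 (18.0 to 28.3) and 112 FPKM (85.8 to 136). The same 2 conditions gave 19.2 (14.8 to 23.5) and 54.6 FPKM (42.2 to 66.9) in GEF-H1-/- cells. Treated cells were above control cells in both genotypes, and treated WT cells were above treated GEF-H1-/- cells, in each case without overlap. The treated level was 4.81 times the control level in WT and 2.85 times in GEF-H1-/- cells, log2 changes of 2.22 ± 0.23 (rank 64 of 11397) and 1.46 ± 0.23 (rank 51). The difference between genotypes was 0.76 (0.12 to 1.39).

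Fos (chromosome 12, 85473901 to 85477270), the classic immediate-early partner of Jun, was low at 5 h. It stood at 2.17 FPKM without the drug (1.54 to 2.79) and 3.58 with it (2.67 to 4.48) in WT cells. The GEF-H1-/- values were 2.47 (1.80 to 3.13) and 2.35 FPKM (1.69 to 3.0). All 4 intervals overlapped. On the log2 scale this was 0.53 ± 0.21 for WT against -0.05 ± 0.20 for GEF-H1-/- cells, and the difference of 0.58 (0.02 to 1.15) barely left 0 outside its interval. Between 12.3% and 21.4% of the 11397 genes had a lower FPKM than Fos in a given group.

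Fosl1 (Fra-1; chromosome 19, 5447698 to 5457563) was close to undetected, at 0.0128 (control) and 0.323 FPKM (treated) in WT cells and 0.0914 and 0.0953 FPKM in GEF-H1-/- cells. Its intervals reached 0 in every group but treated WT, where the interval ran from 0.0260 to 0.624. The interval of treated WT cells overlapped those of the other groups, so no difference was detectable. The gene shares 4384 bases with Ccdc85b on the other strand, which had 2.74 to 4.44 FPKM.

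Fosl2 supplied 91.1% of the summed FPKM of Fos, Fosb, Fosl1 and Fosl2 in control WT and 96.5% in treated WT cells, and 87.8% and 95.6% in GEF-H1-/- cells. The share of Fos was 8.55%, 3.10%, 11.3% and 4.11% in the same order. Fosb was under 0.1 FPKM in all 4 groups. The family's sum was 25.4 FPKM in control and 115.5 in treated WT cells, against 21.8 and 57.1 in GEF-H1-/- cells.

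In the Jun family the sum was 254 FPKM in control and 600.1 in treated WT cells, and 228 and 389 in GEF-H1-/- cells. Jund held 51.2% (control) and 41.4% (treated) of it in WT cells, and 51.2% and 52.1% in GEF-H1-/- cells. The share of Junb was 37.8%, 42.1%, 36.3% and 28.1%, and that of Jun 11.0%, 16.5%, 12.4% and 19.7%. With the drug, Junb thus made up more of the family's mRNA in WT cells and less in GEF-H1-/- cells, while Jun made up more in both. The shares come from pooled FPKM and carry no error of their own.

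**Figure D2:**
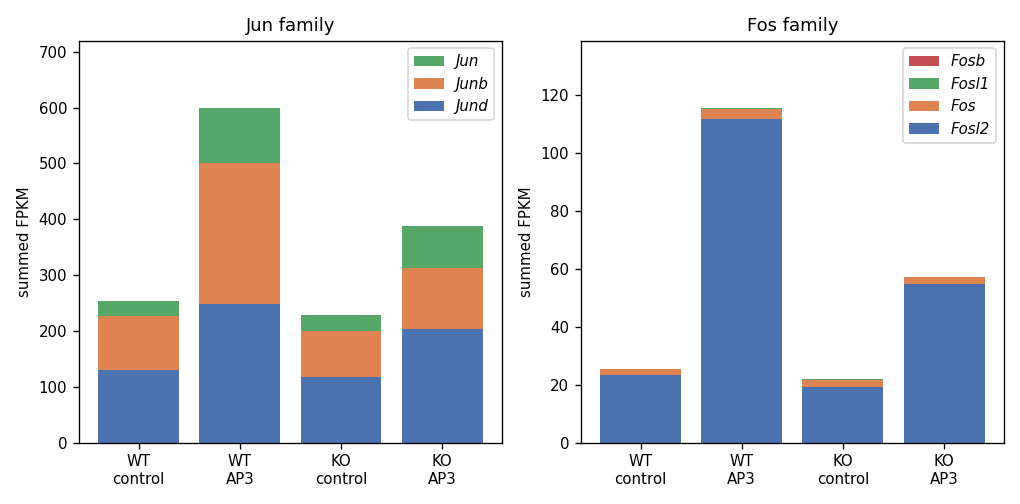
Summed FPKM (vertical axis, from 0) of the Jun family (left) and the Fos family (right) in the 4 groups, stacked by gene, with no error bars. Jund and Junb made up most of the Jun family in every group, and Fosl2 made up 87.8% to 96.5% of the Fos family.

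Of Atf3, Jdp2 and Batf, the first pair had higher levels with the drug and Batf a lower one that was within the error. Atf3 (chromosome 1, 191170297 to 191183333) encodes a stress-induced factor that represses many cytokine genes. Its level was 78.8 (64.3 to 93.2) and, with the drug, 185 FPKM (151 to 219) in WT cells. In GEF-H1-/- cells it was 101 (82.2 to 119) and 168 FPKM (137 to 199). Both treated groups lay above both control groups without overlap, and the treated groups overlapped each other. The log2 changes were 1.22 ± 0.19 and 0.73 ± 0.19, and their difference of 0.49 had an interval of -0.04 to 1.01. Among the 9 genes, Atf3 had the largest positive difference between control GEF-H1-/- and control WT cells, 0.35, and those intervals overlapped.

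Jdp2 (chromosome 12, 85599105 to 85639878) encodes a dimerization partner of Jun that represses AP-1 sites. In WT cells it had 23.0 FPKM without the drug (18.5 to 27.6) and 39.7 with it (32.2 to 47.2). The GEF-H1-/- cells had 19.1 (15.3 to 22.8) and 24.3 FPKM (19.6 to 28.9). Treated WT cells were above the other 3 groups, which overlapped. The log2 change was 0.76 ± 0.19 for WT against 0.33 ± 0.19 for GEF-H1-/- cells, a difference of 0.43 (-0.10 to 0.97).

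Batf (chromosome 12, 85686720 to 85709087) encodes a factor without an activation domain of its own that binds with Jun proteins and IRF4 or IRF8. Its values with the drug were below those without it in both genotypes. Its control and treated levels were 21.7 (17.1 to 26.5) and 16.3 FPKM (12.4 to 20.1) in WT cells, beside 20.6 (16.1 to 24.9) and 17.3 FPKM (13.4 to 21.2) in GEF-H1-/- cells. All intervals overlapped. The log2 changes were -0.40 ± 0.22 and -0.23 ± 0.22, so the error does not separate either value from 0.

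Fos, Jdp2 and Batf are neighbours. They are the 3 protein-coding genes in a stretch of 235187 bases of chromosome 12, with 121835 bases between Fos and Jdp2 and 46842 bases between Jdp2 and Batf. Their log2 changes in WT cells were 0.53, 0.76 and -0.40, in the order of their positions.

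Maff (chromosome 15, 79347678 to 79359076), a small Maf protein without an activation domain, had a low level and a change of the Junb kind. WT cells had 8.02 FPKM without the drug (5.88 to 10.0) and 17.7 with it (12.9 to 21.6), and GEF-H1-/- cells 6.11 (4.38 to 7.68) and 7.97 FPKM (5.73 to 9.99). Treated WT cells were apart from the other 3 groups, which overlapped. The log2 change was 1.05 ± 0.24 for WT against 0.33 ± 0.24 for GEF-H1-/- cells, a difference of 0.72 (0.04 to 1.39).

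Counted over the 9 genes that passed the filter, 5 had a log2 change over 1 in WT cells (Fosl2, Jun, Junb, Atf3 and Maff), against 3.66% of all 11397 genes. None of the 9 was under -1, as 1.28% of all genes were. For 7 genes (these 5, Jund and Jdp2) the treated interval lay above the control interval, against 9.19% of all genes, and for 0 it lay below, against 7.58%. The median change of the 9 genes was 1.05, and that of all genes was 0.00. In GEF-H1-/- cells 2 genes were over 1 (Fosl2 and Jun), against 0.807% of all genes, and 4 had a treated interval above the control interval (Fosl2, Jun, Jund and Atf3), against 2.75%. None was under -1 (0.272% of all genes) or had a treated interval below the control interval (0.956%). At a lower limit of 0.5, 8 genes passed in WT cells (all but Batf) against 12.4% of all genes, and 4 in GEF-H1-/- cells against 3.85%. The median in GEF-H1-/- cells was 0.40, and that of all genes was -0.01. These are differences in bulk RNA, in which fewer cells of a type and less RNA per cell cannot be told apart. The genes were chosen with earlier results of these data known, so the shares beside these counts describe them and do not test them.

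The scale of the groups bears on these counts. Summed over all genes, FPKM came to 739523 in treated WT cells and to between 599331 and 617423 in the other 3 groups. When the groups were brought to a common sum, Fosl2, Jun and Junb were still over 1 in WT cells and Atf3 and Maff were not, with the median of all genes at -0.24. The treated WT interval then lay above the control interval for 5 genes (Jund and Jdp2 no longer among them) and below it for 1, Batf.

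**Figure D3:**
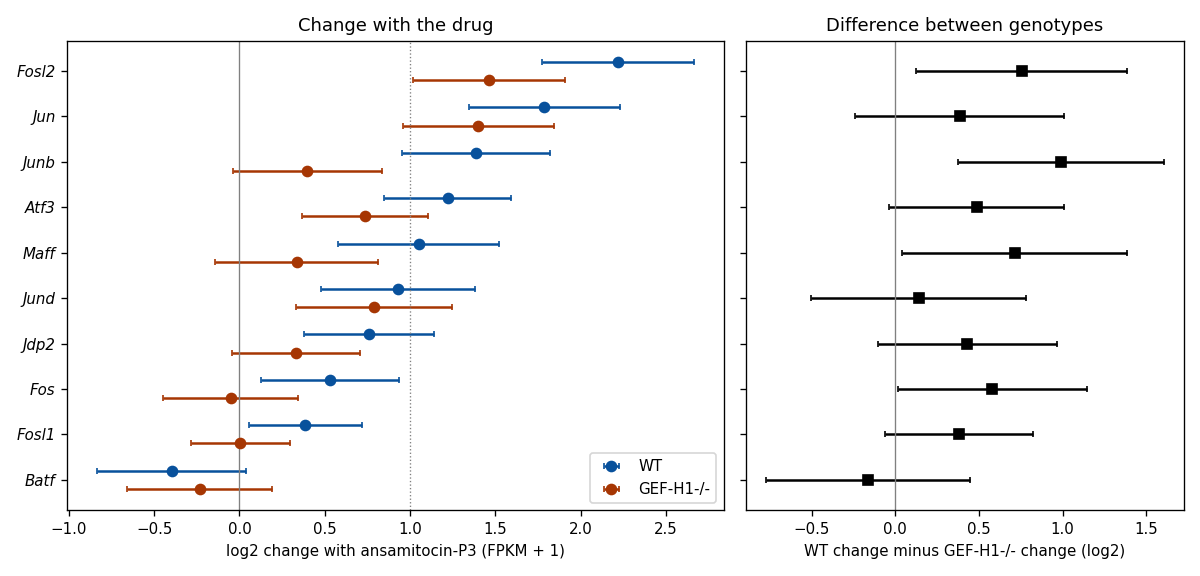
Left, log2 change in FPKM + 1 with ansamitocin-P3 for each of the 10 AP-1 genes in WT (blue) and GEF-H1-/- (brown) BMDCs, with the dotted line at 1; right, the WT change minus the GEF-H1-/- change. Bars are 95% intervals derived from the Cuffdiff intervals of the pooled values; the difference lies above 0 with its whole interval for Fosl2, Junb, Maff and Fos, and Fosl1 is drawn although it was below the filter.

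The comparison between genotypes asks whether the AP-1 genes depend on GEF-H1 before and after the microtubules are destabilized. Without drug, 0 of the 9 genes differed by more than 1 on the log2 scale in either direction, and no pair of intervals was apart. Of all genes 1.26% were over 1 and 0.614% under -1 there, and the GEF-H1-/- interval was above the WT interval for 2.86% and below it for 1.88%. The values ran from -0.34 for Maff to 0.35 for Atf3. After the drug, 3 genes were lower in GEF-H1-/- cells by more than 1, Junb at -1.20, Maff at -1.06 and Fosl2 at -1.02, against 2.06% of all genes. With Jdp2 at -0.69, these were the 4 genes whose GEF-H1-/- interval was below the WT interval, against 6.73%, and on a common sum of FPKM Jdp2 was no longer among them. None of the 9 was over 1 (2% of all genes) or had its interval above (7.02%). Jun at -0.37, Jund at -0.29 and Atf3 at -0.14 (0.12 on a common sum of FPKM) overlapped between the treated groups. On a common sum of FPKM, 0 genes were under -1, and Junb was at -0.94.

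The difference between the drug's effects, WT minus GEF-H1-/-, was positive for 8 of 9 genes, and 51.6% of all genes were positive. Its 95% interval lay above 0 for Junb, Fosl2, Maff and Fos, against 4.77% of all genes, and below 0 for none, against 3.52%. On a common sum this held for Junb alone. On the reported scale the lower end was close to 0 for Maff and Fos. No AP-1 gene had a difference over 1, against 1.36% of all genes, or under -1, against 0.535%, and 4 were over 0.5, against 6.73%. The change in GEF-H1-/- cells was 0.849 of the WT change for Jund, 0.784 for Jun, 0.660 for Fosl2 and 0.602 for Atf3. It was 0.434 for Jdp2, 0.319 for Maff and 0.286 for Junb. No share is given for Fos, with changes of 0.53 and -0.05, or for Batf, with -0.40 and -0.23. The shares carry no error of their own. On a common sum of FPKM the change of Jund was the larger one in GEF-H1-/- cells. The genotype comparisons and the drug comparisons use the same 4 pooled groups, so they are not independent of each other.

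**Figure D4:**
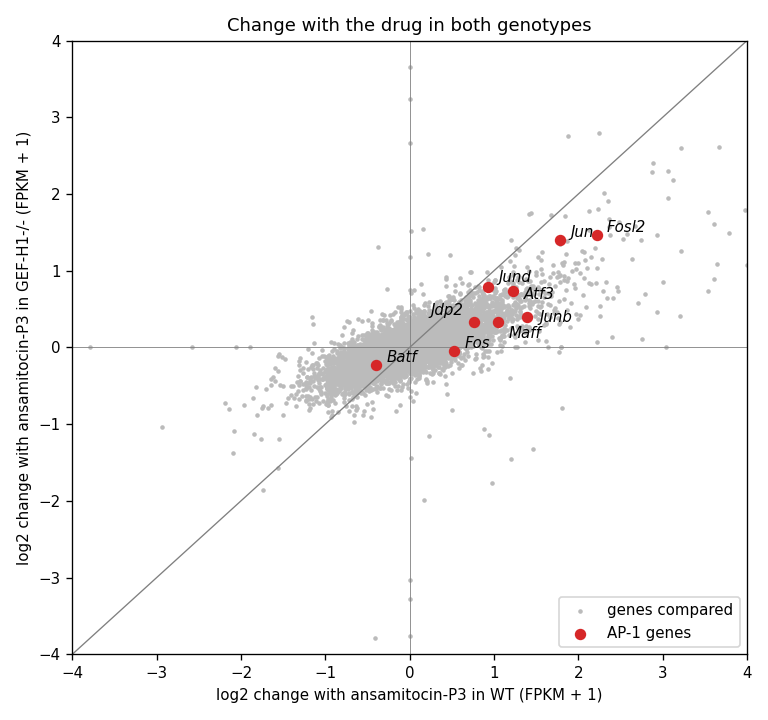
Log2 change in FPKM + 1 with ansamitocin-P3 in WT (horizontal) and GEF-H1-/- (vertical) BMDCs for genes that passed the filter (grey, 11358 drawn and 39 outside the axes) and the 9 AP-1 genes among them (red). On the diagonal the change is equal. Junb (1.39 and 0.40), Fosl2 (2.22 and 1.46) and Maff (1.05 and 0.33) lie far below it. Jund (0.93 and 0.79) lies close to it, and Batf is negative on both axes.

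Markers of other cell types differed between the genotypes, and none of those listed was at 0 in any group. The 6 neutrophil markers summed to 21743 FPKM in control and 25891 in treated WT cells and to 11828 and 12109 in GEF-H1-/- cells, and Camp was at 189, 202, 15.0 and 18.7 FPKM in the groups in that order. In control cells 3 of the 6 were lower in GEF-H1-/- cells by more than 1, against 0.614% of all genes. Elane and Mpo were higher by more than 1, against 1.26%. The intervals of Elane overlapped and reached 0 in every group, and its locus was given as 79697305 to 80369637 of chromosome 10. No difference is therefore read for Elane. The 4 mast cell and basophil markers summed to 183 and 189 FPKM in WT and to 356 and 341 in GEF-H1-/- cells. All 4 were higher in the latter, as were 5435 of 11397 genes in control and 5348 in treated cells. In control cells 2 of the 4 were over 1, against 1.26% of all genes. With the drug, neither list had a member over 1 or under -1 in either genotype. The shares over all genes were 3.66% and 1.28% in WT and 0.807% and 0.272% in GEF-H1-/- cells, so counts of 0 are near this background. The 5 macrophage markers summed to 216 and 165 FPKM in WT and 259 and 234 in GEF-H1-/- cells, and Mertk, a receptor for the uptake of dead cells, was 5.46, 0.778, 4.56 and 2.53 FPKM. The 3 lymphocyte markers summed to at most 8.74 FPKM in any group. Of the 6 dendritic cell markers 4 were higher and 2 lower with the drug in WT cells. Intervals were separate for Ccr7 (higher, as for 9.19% of all genes) and Flt3 (lower, as for 7.58%). Ccr7, the receptor that guides mature cells to lymph nodes, was 258 and 602 FPKM in WT and 234 and 405 in GEF-H1-/- cells. Flt3, a growth factor receptor of dendritic cell precursors, was 2.10 and 1.07 FPKM in WT and 2.63 and 2.18 in GEF-H1-/- cells. The part of these cells in the levels of the AP-1 genes was not tested.

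The order of the AP-1 genes by level shifted with the drug, while in WT cells the 5 highest genes stayed the same. In control WT cells Jund, Junb and Atf3 headed the order with overlapping neighbours, then came Jun, Fosl2, Jdp2 and Batf, again with overlapping neighbours, and Maff, Fos and Fosl1 each stood apart below them. In treated WT cells Fosl2 and Jun had left Jdp2 and Batf behind, and Jdp2 was in turn apart from Maff and Batf. Jund, Atf3, Junb, Jun and Fosl2 were the 5 highest genes in both WT groups and in treated GEF-H1-/- cells. In control GEF-H1-/- cells Batf came before Fosl2, with overlapping intervals. In treated GEF-H1-/- cells Junb was below Atf3 without overlap and did not differ from Jun beyond the intervals. The sum over the 10 genes was 411 FPKM in control and 974 in treated WT, and 396 and 664 in GEF-H1-/- cells.

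Of 11 other genes of the AP-1 superfamily 8 passed the filter, and 0 had a log2 change over 1 or under -1 in either genotype. Over all genes the shares were 3.66% over 1 and 1.28% under -1 in WT cells, and 0.807% and 0.272% in GEF-H1-/- cells, so a count of 0 among 8 is near this background. Their median change was 0.35 for WT against 0.16 for GEF-H1-/- cells. Batf3, which is needed for cross-presenting dendritic cells, was the highest of them, at 106 and 72.5 FPKM in WT and 141 and 121 in GEF-H1-/- cells, control first. Its intervals overlapped between control and treated cells of each genotype, and between the genotypes in each condition. Mafk, the relative of Maff, had separate intervals in WT cells, at 9.39 and 17.5 FPKM.

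Among 8 ATF and CREB relatives, Crem, whose products modulate cAMP-responsive genes, was over 1 in WT cells, as were 3.66% of all genes. It was at 16.1 and 58.0 FPKM in WT (1.79) and at 8.83 and 16.8 in GEF-H1-/- cells (0.85). Atf4, the effector of the integrated stress response, was the highest of the list at 173 and 281 FPKM in WT and 142 and 177 in GEF-H1-/- cells, with separate intervals in WT. The list's medians were 0.37 and 0.19.

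The route from RhoA through the MAP kinases to AP-1 was listed as 22 genes (Rhoa, kinases and 2 scaffold proteins), of which 18 passed. None was over 1 in either genotype, against 3.66% and 0.807% of all genes, and their medians were 0.17 and -0.00. The activity of the kinases is set by phosphorylation, which mRNA does not show. Rhoa was the highest, at 314 and 399 FPKM in WT and 310 and 330 in GEF-H1-/- cells. Map2k6, an activator of p38 kinases, was under -1 in WT cells, at 1.91 and 0.269 FPKM (-1.20), as were 1.28% of all genes. It was at 1.54 and 0.437 FPKM in GEF-H1-/- cells (-0.82), with separate intervals in both genotypes. The kinase p38α (Mapk14) was the other gene of the list with separate intervals in WT cells, at 48.0 and 28.2 FPKM, and was at 49.0 and 34.7 FPKM in GEF-H1-/- cells. Over all genes the treated interval lay below the control interval for 7.58% in WT and 0.956% in GEF-H1-/- cells.

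Of 15 partners and regulators of AP-1, 14 passed, with medians of 0.55 and 0.30. In WT cells 3 were over 1, Dusp1, Irf8 and Nfe2l2, against 3.66% of all genes. Dusp1, the phosphatase that switches off JNK and p38, was at 14.3 and 128 FPKM in WT (3.07) and at 15.0 and 78.3 in GEF-H1-/- cells (2.31). Irf8, a partner of Batf with Jun, was at 18.8 and 96.8 FPKM in WT and 24.8 and 103 in GEF-H1-/- cells. Nfe2l2 (Nrf2), which pairs with small Maf proteins such as Maff, was at 46.2 and 113 FPKM in WT and 42.3 and 54.9 in GEF-H1-/- cells. Irf4 was the highest gene of the list, at 99.6 and 170.0 FPKM in WT and 100.2 and 129 in GEF-H1-/- cells. In GEF-H1-/- cells Dusp1 and Irf8 were over 1, against 0.807% of all genes.

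Textbook target genes of AP-1 had the widest range of changes among these lists in WT cells. Of 21 genes 20 passed, and in WT cells 12 were over 1 and 1 was under -1, against 3.66% and 1.28% of all genes. In GEF-H1-/- cells 6 were over 1, against 0.807%. The medians were 1.72 and 0.53. Without the drug, 17 of the 20 already had higher values in GEF-H1-/- than in WT cells (5435 of all 11397 genes), with a median of 0.39. There 6 were over 1, against 1.26% of all genes. For 7 the GEF-H1-/- interval was above the WT interval, against 2.86%. Changes in GEF-H1-/- cells thus started from higher control values for most of the list. Its genes were chosen with earlier results of these data known. Cxcl2, a neutrophil chemokine, had the largest change in WT cells, 3.78, with 3.68 and 63.4 FPKM, and 1.50 in GEF-H1-/- cells, with 5.36 and 17.0 FPKM. Plaur, the urokinase receptor, was at 90.4 and 699 FPKM in WT and 101 and 281 in GEF-H1-/- cells. Il1b was at 25.2 and 242 FPKM and at 22.8 and 56.2 FPKM. The other genes over 1 in both genotypes were Il6 (2.67 and 1.59), Hbegf (2.64 and 1.15) and Ccl2 (2.05 and 1.26).

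The remaining targets over 1 in WT cells were Mmp13, Mmp12, Vegfa, Ptgs2, Timp1 and Mt2. Mmp13, a collagenase, was at 1.63 and 29.5 FPKM in WT and at 31.2 and 52.8 in GEF-H1-/- cells, and the intervals of treated WT and control GEF-H1-/- cells overlapped. Mmp12, the highest gene of the list, was at 233 and 1520.4 FPKM in WT and 635 and 951 in GEF-H1-/- cells. Timp1 was over 1 (1.52) but its intervals overlapped. Ccnd1, the cyclin whose gene Jun activates in proliferating cells, was under -1 in WT cells, at 19.8 and 6.10 FPKM, and at 14.1 and 13.3 in GEF-H1-/- cells. These genes have many regulators besides AP-1.

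**Figure D5:**
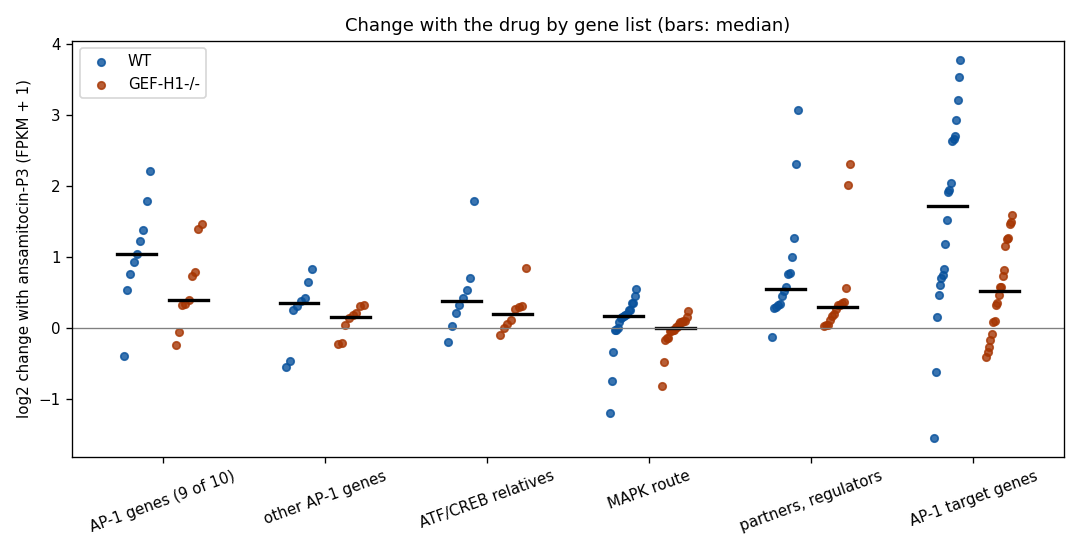
Log2 change in FPKM + 1 with ansamitocin-P3 (vertical axis) for each gene that passed the filter in 6 lists, in WT (blue) and GEF-H1-/- (brown) BMDCs, with the list's median as a bar. The medians of the AP-1 genes were 1.05 and 0.40 and those of the target genes 1.72 and 0.53, while the MAPK list was at 0.17 and -0.00.

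Genes with a pattern like that of Jun were ranked among the 8894 genes with at least 5 FPKM in some group, by the Euclidean distance between the 4 centred group values of log2(FPKM + 1). The nearest were Filip1l at a distance of 0.24, Cd200 and Gm19510 at 0.25, and Ttc39c and Gm6682 at 0.27. Cd200, a surface glycoprotein that inhibits myeloid cells, was at 13.0 and 49.2 FPKM in WT and 11.0 and 38.6 in GEF-H1-/- cells. The AP-1 gene closest to Jun was Fosl2, at 0.56, in place 61. Nearest to Fosl2 were Osgin2 (0.14), Gadd45a (0.18), Ccl4 (0.19), Trem1 (0.24) and Satb1 (0.25). Ccl4, a chemokine, was at 91.9 and 387 FPKM in WT and 77.2 and 185 in GEF-H1-/- cells, and Gadd45a, a stress-induced gene of growth arrest, at 10.3, 57.1, 8.23 and 28.3 FPKM. With 4 pooled values a gene, such a distance describes 4 points and nothing more.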

How the data were processed

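The 8 libraries hold RNA of control and treated BMDCs of both genotypes. The authors made strand-specific libraries from 500 ng of RNA, sequenced 35-bp pairs, and computed FPKM with Cuffdiff (version 1.05 per the labels) on GRCm38 (mm10). The deposited table holds FPKM pooled per group, with 95% intervals and a status. The aligner and annotation behind it are not given in the sources used here. The number of columns with values of single samples that were not used is 0. The depth of each library is unknown, and the median width of an interval in control WT cells was 45.3% of the value among genes that passed.

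Genes with a status other than OK (106 with low data, 1 with too many data) or under 1 FPKM in all groups were left out, which kept 11397 of 23356. Changes are log2 ratios of FPKM + 1, which understates the change of low genes. Values over 1 or under -1 and intervals that do not overlap were counted. SEs were taken from the intervals (width over 2 × 1.96) by the delta method, treating groups as independent. There is no test with 1 pooled value a group. The 4 group values of Adgre1 were read under its older symbol Emr1. Promoter windows and gene overlaps came from RefSeq and GENCODE M21. The members, lists and thresholds were chosen with earlier results of these data known. Named genes are all members, Arhgef2, and every list gene past 1 either way in a drug comparison. Also named are the highest gene of each list and the 5 genes nearest to Jun and to Fosl2. Mafk, Mapk14, Mt1 and the markers named were added after their values were seen. Pseudocounts, filters, thresholds and scalings were varied. The computation was tested on simulated data. The simulated intervals were symmetric about the value, as the computation assumes, so asymmetric intervals were not covered. Python 3.11.15, numpy 2.4.6, pandas 2.3.3 and matplotlib 3.10.9 were used.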

Additional observations from a re-analysis of the deposited data

How the results depend on the processing

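Settings varied were the pseudocount (0.1 and 5 FPKM), the filter (none and 5 FPKM), the threshold, the call by intervals and 3 rescalings of the groups. All 310 values of single genes stayed within their error, and 183 medians and counts stayed close to the reported value (counts within a factor of 3/2) against 12 that moved. With a pseudocount of 5, the count over 1 with the drug in WT cells went from 5 to 4 (without Maff), and the genes lower than -1 in treated GEF-H1-/- against treated WT cells went from 3 to 1 (Junb). With the groups at a common sum of FPKM, and likewise without small RNA genes in the sum, this count was 0, the count over 1 with the drug in WT cells went from 5 to 3, the intervals apart and lower there from 0 to 1 (Batf), and the differences between genotypes with an interval above 0 from 4 to 1 (Junb). This scaling multiplies treated WT values by 0.824 (0.847 without small RNA genes) and shifts the median of all genes to -0.24 (-0.20) in that comparison and to 0.20 (0.19) between the treated genotypes. With a threshold of 0.5, the counts were 8 in WT, 4 in GEF-H1-/- cells and 4 for the difference between genotypes. Over all settings, the sign changed for Atf3 between treated genotypes (-0.14 to 0.12) and for Jund in the difference between the drug's effects (-0.09 to 0.14). No paired analysis was possible because the table holds 1 pooled value per group, and leaving out a replicate could not be run for the same reason. Values under 1 FPKM, as for Fosl1, have intervals that reach or approach 0. With a filter of 5 FPKM, Fos was no longer counted, which left 3 differences between genotypes with an interval above 0.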
